A study of Mus musculus with 2 samples.

Results

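The enterochromaffin cells of the ileal crypt were taken as the cells that carry the class name EC in the cell table the authors deposited. They numbered 125 of 11562 listed cells, 42 in replicate 1 and 83 in replicate 2, which was 0.792% (exact Clopper-Pearson 95% interval 0.571 to 1.07) and 1.33% (1.06 to 1.64) of the listed cells of each library. The cells came from the ileum of mice of the genotype Atoh1CreER-T2;R26RTom, titled WT, in which a tamoxifen-dependent Cre recombinase is driven by Atoh1, a gene of secretory commitment, and switches on the red reporter Tom. Tamoxifen (1 mg/mL) was injected intraperitoneally 2 times, 24 h apart, and crypt cells were harvested 12 h after the last injection, separated from villi by straining and sorted as live Tom+ cells. All cells of both libraries share this genotype and treatment, so the sort holds Atoh1-lineage cells of the crypt and says nothing of villus cells. Whether each library is another animal, or a pool of animals, is not stated in the labels. All p-values measure the spread between these 2 libraries that is left once their general difference is taken out. That spread was estimated over all classes together, not for EC alone, and may be technical.

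Enterochromaffin cells are the serotonin-making type of enteroendocrine cell, the hormone cells scattered through the gut epithelium. They turn tryptophan into serotonin with the enzymes encoded by Tph1 and Ddc, load it into granules built around chromogranins, and release it on electrical excitation onto nerve endings and neighbouring cells. Like all enteroendocrine cells they arise in the crypt from progenitors that pass through a brief Neurog3 stage, and many of them also make tachykinins such as substance P from the Tac1 gene.

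UMI counts (unique molecular identifiers, 1 per captured transcript) of the EC cells were summed by library, to 129631 UMIs for replicate 1 and 214067 for replicate 2. An EC cell had a median of 2913 and 2164 UMIs and of 1611 and 1304 genes in these libraries. Levels below are CPM, the UMIs of a gene scaled to a fixed total per class sum (with TMM factors), with replicate 1 first and replicate 2 second, and they compare 1 gene between classes, since a 3′ count is not divided by length. A UMI of each of Tph1, Ddc and Chga was found in 36 of 42 and 42 of 83 EC cells, no EC cell lacked all 3, and every EC cell had Chgb UMIs, so the defining markers of the label were present. No barcode was classed EC in both libraries, while 12 listed barcodes of any class occurred in both. Among markers of other types, 8 of 8 immune and 4 of 4 erythroid genes were at 0 in EC, as were 6 of 8 tuft genes (0 and 7.35 CPM summed over the list), 7 of 8 stromal and endothelial genes and 4 of 8 neuronal and glial genes. The goblet list summed to 1908 and 10641 CPM and the Paneth list to 7078 and 20620, against 14513 and 13149 and 7136 and 11215 in NON-EC, so both were higher in EC replicate 2 than in EC replicate 1. In replicate 2, 6 EC cells with at least 20 Muc2, 100 Defa24 or 20 Sst UMIs held 68.9% of the Muc2 and 50.1% of the Defa24 UMIs of EC, and replicate 1 held no such cell. Without them the counts of genes called against the 2 nearest classes were 100 and 100 (87 and 80 with them) and 499 and 322 (511 and 315).

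The EC sums were compared with each of the other 11 classes the authors named. A log2 difference is EC minus the other class, with its standard error (SE), from edgeR's quasi-likelihood test with library as a second term, and a gene was called at a Benjamini-Hochberg adjusted p under 0.05 over 10994 genes. The classes were themselves cut from these cells' expression, so a call is no independent evidence for the class. A call measures a difference against the spread left between libraries, estimated over all classes. The fewest calls were found against NON-EC, the enteroendocrine cells that are not enterochromaffin (215 cells), where 87 genes were higher in EC (0.791% of those tested) and 80 lower (0.728%). Next came EEC-PRE, the enteroendocrine precursors (130 cells), with 511 higher (4.65%) and 315 lower (2.87%). With TMM over all genes these became 359 and 425 and with DESeq2 size factors 375 and 407, and the median difference of all genes moved from 0.20 to 0.04 and 0.06, so small differences from EEC-PRE are to be read relative to that shift. Against the tuft class (TUFT) 1084 genes were higher (9.86%) and 508 lower (4.62%). The share of genes higher in EC was 11.9% against GOBLET, 16.6% against PANETH, 16.8% against PANETH-PRE, 17.1% against SEC-PRO, 20.2% against ENTERO-PRO, 20.4% against GP, 20.9% against ISC and 23.6% against GOBLET-PRE. The share lower in EC was, in the same order, 9.49%, 9.04%, 7.93%, 9.32%, 10.8%, 7.64%, 9.85% and 9.52%. Spearman's rho across the 10994 genes, which are not independent replicates, was 0.832 and 0.863 between EC and NON-EC and 0.756 and 0.808 between EC and EEC-PRE. In all, 57 genes (0.518%) were higher in EC than in each of the 11 other classes, and 3 (0.0273%) were lower than in each. Counts of list members called below are to be read beside these shares of all genes.

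Serotonin synthesis and granule loading set EC apart at Tph1 and Slc18a1, whereas the difference in Ddc from NON-EC did not pass. Tph1 (ENSMUSG00000040046, mm10 chr7:46644641-46672537, minus strand) encodes tryptophan hydroxylase, the rate-limiting enzyme of serotonin synthesis outside the brain. Its level was 1099.6 and 577 CPM in EC, 8.29 and 2.33 in NON-EC and 0 and 0 in EEC-PRE, and the groups did not overlap. The log2 difference from NON-EC was 7.24 ± 0.40 (adjusted p = 7.04e-14), and the level was at least 134-fold higher than in EEC-PRE, taking 3 counts over both libraries as the limit of 0 (adjusted p = 2.17e-12). Tph1, Ddc and Chga are the defining markers of the label, so their p-values, and the lack of overlap at Tph1, add no support to the class. Slc18a1 encodes VMAT1, the transporter that packs monoamines into granules of endocrine cells. It stood at 219 and 151 CPM in EC, 31.1 and 27.996 in NON-EC and 16.8 and 18.2 in EEC-PRE, with differences of 2.59 ± 0.32 (adjusted p = 2.84e-09) and 3.36 ± 0.42 (adjusted p = 2.07e-09). Ddc, the decarboxylase of the second step, was at 1045 and 647 CPM in EC and 549 and 457 in NON-EC, a difference of 0.69 ± 0.22 that did not pass (adjusted p = 0.2). Against EEC-PRE, at 336 and 414 CPM, it was 1.13 ± 0.25 higher (adjusted p = 0.00716). Maoa, of the pathway's degradation arm, was at 24.3 and 11.03 CPM in EC and 12.4 and 25.7 in NON-EC (adjusted p = 0.979), and the melatonin genes Aanat and Asmt were at 0 in EC. Of the 9 genes on the serotonin list 6 were tested, of which 2 were higher than in NON-EC and 3 higher than in EEC-PRE (1 and 2 with DESeq2), beside 0.791% and 4.65% of all genes tested. With DESeq2 the Tph1 difference from NON-EC did not pass (adjusted p = 0.422), and the Ddc difference from EEC-PRE did not pass with DESeq2, without EC replicate 1 or with free RNA subtracted (adjusted p up to 0.0598).

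The cofactor of tryptophan hydroxylase is tetrahydrobiopterin, made by the enzyme of Gch1 as its entry step and regenerated by that of Qdpr. Gch1 was at 419 and 224 CPM in EC, 226 and 121 in NON-EC and 36.96 and 31.9 in EEC-PRE. Its difference from EEC-PRE was 3.16 ± 0.41 (adjusted p = 1.5e-06), and that from NON-EC, 0.82 ± 0.26, did not pass (adjusted p = 0.153). Qdpr stood at 146 and 103 CPM against 84.95 and 67.7 and 36.96 and 27.3, which was 1.85 ± 0.40 above EEC-PRE (adjusted p = 0.000603). All 8 genes of the cofactor list were tested: 0 were called against NON-EC by edgeR or DESeq2 (2 at an unadjusted p under 0.05), and these 2 were higher than in EEC-PRE. Over all genes tested 0.791% were higher and 0.728% lower than in NON-EC, and 4.65% higher than in EEC-PRE.

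**Figure D1:**
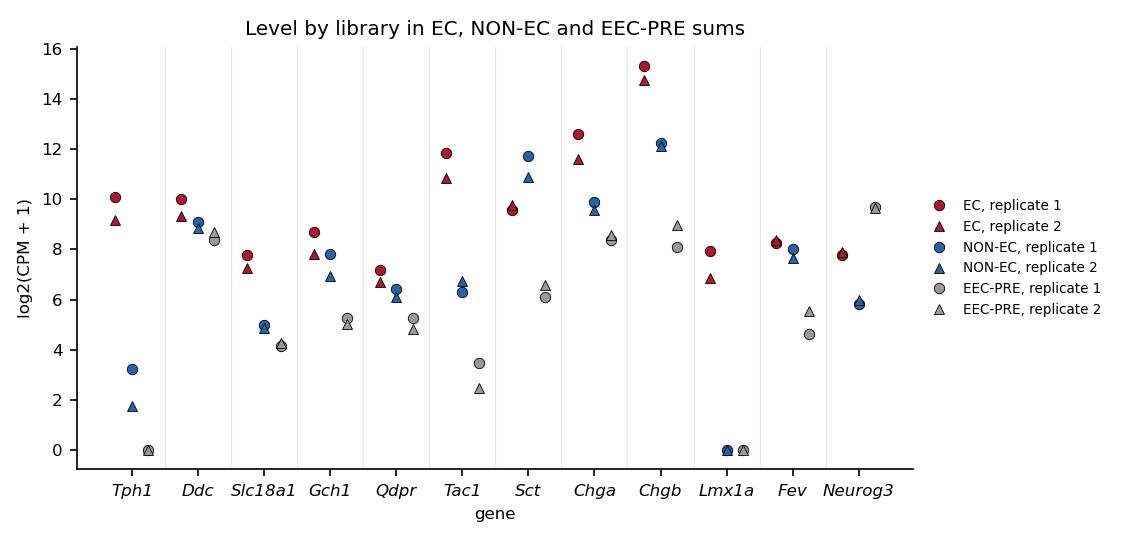
Levels of 12 genes as log2(CPM + 1), 1 column per gene, in EC (red), NON-EC (blue) and EEC-PRE (grey); circles are replicate 1 and triangles replicate 2. Tph1, Slc18a1, Tac1, Chga, Chgb and Lmx1a are highest in EC in both libraries, Sct is highest in NON-EC and Neurog3 in EEC-PRE.

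The DNA before the start of 3 of these genes is shown because Tph1 and Chga were among the 57 genes highest in EC and carry the core of the cAMP response element, TGACG, while Rab3c, described below, was among them without it. Sequences are the 250 bases before the start of RefSeq transcripts on GRCm38.p6, 5′ to 3′ on the gene's strand, and capitals mark TGACG or its reverse complement CGTCA. The upstream start of Tph1 covers chr7:46672538-46672787 (minus), its second start chr7:46667378-46667627 (minus), Chga chr12:102554691-102554940 (plus) and Rab3c chr13:110280207-110280456 (minus). The windows of the second Tph1 start and of Rab3c lie inside the gene's annotated span given with its levels, because the RefSeq start differs from the outermost annotated one, so the lack of a match for Rab3c says only that these letters are not in this window.
Tph1, start 1: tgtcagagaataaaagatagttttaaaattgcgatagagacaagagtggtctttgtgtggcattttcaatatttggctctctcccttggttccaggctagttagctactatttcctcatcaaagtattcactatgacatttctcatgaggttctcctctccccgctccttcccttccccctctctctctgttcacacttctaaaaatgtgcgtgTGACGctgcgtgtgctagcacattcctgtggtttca
Tph1, start 2: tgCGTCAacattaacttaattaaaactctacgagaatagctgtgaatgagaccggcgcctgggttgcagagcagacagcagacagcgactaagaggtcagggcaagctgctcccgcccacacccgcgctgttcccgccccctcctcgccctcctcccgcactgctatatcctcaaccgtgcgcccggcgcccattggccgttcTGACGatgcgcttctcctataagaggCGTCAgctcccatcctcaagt
Chga: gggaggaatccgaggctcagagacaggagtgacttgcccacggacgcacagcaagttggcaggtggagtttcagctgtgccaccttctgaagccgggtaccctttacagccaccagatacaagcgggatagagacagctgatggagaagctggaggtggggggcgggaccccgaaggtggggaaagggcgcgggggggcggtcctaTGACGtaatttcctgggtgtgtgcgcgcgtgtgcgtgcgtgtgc
Rab3c: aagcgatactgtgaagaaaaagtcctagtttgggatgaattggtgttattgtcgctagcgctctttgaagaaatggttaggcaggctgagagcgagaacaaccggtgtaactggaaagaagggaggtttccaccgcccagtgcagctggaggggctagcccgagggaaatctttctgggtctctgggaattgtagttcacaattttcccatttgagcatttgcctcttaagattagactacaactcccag
The matches lie 36 bases before start 1 of Tph1, 248, 47 and 21 bases before its start 2, and 44 bases before the start of Chga. The UMI counts come from transcript 3′ ends and do not tell the 2 Tph1 starts apart. Matches were also found 43 and 197 bases before the RefSeq start of Tac1 and 69 and 72 before that of Chgb. Pcsk1 had them at 50, 75 and 78 bases, and Lmx1a had none. The sequences of these 4 windows are not printed. Annotated exon covers 250 of the 250 bases for Chgb, 182 for Tac1, 31 for Pcsk1 and 1 for Lmx1a. Both Chgb matches thus lie in annotated exon, and the Tac1 match at 43 bases lies inside the gene's annotated span. The matches at 69 and 72 overlap, as do those at 75 and 78, so neither pair is 2 separate places. Of the 57 genes 42 had an entry, with 56 starts, of which 16 (28.6%) held TGACG on either strand. That share was 27.0% over the 11043 starts of the genes tested and 17.8% over all 32851 starts, so the share was close to that of tested genes as a whole. A match describes the letters of the sequence and was not tested as a binding site. The homeodomain core TAATTA was in 3.57% of the 56 starts and 2.43% of those of tested genes.

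Among peptide hormones EC carried Tac1, with a lower level of Sct, and was almost empty of the products that fill NON-EC. Tac1 (mm10 chr6:7554879-7565834, plus strand) encodes the precursor of substance P and neurokinin A, and was at 3669 and 1849.5 CPM in EC, 78.7 and 105 in NON-EC and 10.1 and 4.55 in EEC-PRE. The differences were 4.90 ± 0.20 (adjusted p = 4.84e-18) and 8.51 ± 0.34 (adjusted p = 3.69e-18). Sct, the precursor of secretin, was at 772 and 871 CPM in EC, between 3400.2 and 1920.1 in NON-EC and 67.2 and 95.6 in EEC-PRE. It was thus -1.65 ± 0.25 relative to NON-EC (adjusted p = 0.00299) and 3.41 ± 0.43 relative to EEC-PRE (adjusted p = 0.000212), and 1 cell held 23.9% of its EC UMIs. No UMI of Gcg, Gip, Ghrl or Nts, the precursors of glucagon-like peptides, GIP, ghrelin and neurotensin, was found in any EC cell. Gcg was at 3956 and 1603 CPM in NON-EC, so that EC was at least 415-fold lower (adjusted p = 0.00015). For Gip, at 632 and 2937 CPM in NON-EC, EC was at least 249.8-fold lower (adjusted p = 1.66e-38). The limit was 399-fold for Ghrl, at 2895 and 2564 CPM in NON-EC, and 11.98-fold for Nts, at 93.2 and 69.99 (adjusted p = 1.75e-05 and 1.83e-05). All 4 were thus at 0 in EC and present in both libraries of NON-EC. Nts, however, had a UMI in only 3 of 103 and 2 of 112 NON-EC cells (2.91% and 1.79%). The 0 of 42 and 0 of 83 EC cells allow up to 7.14% and 3.61%, so the share of cells with Nts does not tell the 2 classes apart. Cck, the cholecystokinin precursor, kept a trace in EC, 91.1 and 22.1 CPM against 3777 and 1792, or -5.72 ± 0.22 (adjusted p = 1.37e-30), and was 3.22 ± 0.77 above EEC-PRE (adjusted p = 0.00292). Pyy was at 0 and 3.68 CPM against 2296 and 1024 in NON-EC (-9.33 ± 0.70, adjusted p = 6.81e-06). The 0 and 147 CPM of Sst, the somatostatin gene, were 40 UMIs of 1 cell of replicate 2. Of the 34 hormone genes 13 were tested, with 1 higher and 8 lower than in NON-EC and 3 higher than in EEC-PRE (Tac1, Sct, Cck), beside 0.791%, 0.728% and 4.65% of all genes tested. The Sct difference from NON-EC did not pass without EC replicate 1 (adjusted p = 0.0813), nor the Ghrl difference with free RNA subtracted (0.174), and the Cck difference from EEC-PRE was lost under 4 alternatives, among them without EC replicate 1.

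Among granule genes both chromogranins stood highest in EC. Chgb, a scaffold protein of secretory granules, was at 40782 and 27782 CPM in EC, 4809 and 4526 in NON-EC and 272 and 505 in EEC-PRE, and took 5.18% and 3.53% of all EC UMIs. The differences were 2.89 ± 0.42 (adjusted p = 0.00255) and 6.53 ± 0.52 (adjusted p = 4.29e-06). Chga, its relative, was at 6160.2 and 3136 CPM against 949 and 769.9 and 329 and 382, which was 2.40 ± 0.39 above NON-EC (adjusted p = 0.00981) and 3.69 ± 0.48 above EEC-PRE (adjusted p = 0.000491). Every EC value of both genes lay above every NON-EC and EEC-PRE value. This adds no support, since Chga is a defining marker of the label and both genes were called higher than in each class. The prohormone convertase gene Pcsk1 was at 693 and 313 CPM against 247 and 226 and 239 and 241, with differences of 1.002 and 0.99 (adjusted p = 0.00017 and 0.000329). Bex2, which encodes neither a granin nor a prohormone-processing enzyme, stood at 200.5 and 250.03 CPM against 70.5 and 97.99 in NON-EC (1.47 ± 0.26, adjusted p = 3.11e-05).

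Other granule genes ran the opposite way relative to NON-EC. Scg2, secretogranin 2, was at 0 and 0 CPM in EC and 244 and 107 in NON-EC (at least 26.2-fold lower, adjusted p = 6.08e-10), and Scgn, the calcium binder secretagogin, at 6.08 and 44.1 against 651 and 726 (-4.58 ± 0.35, adjusted p = 6.74e-10). The peptide-trimming carboxypeptidase gene Cpe was at 365 and 302 CPM in EC and 667 and 574 in NON-EC (-0.93 ± 0.21, adjusted p = 0.0165). Pam, which encodes the enzyme that amidates peptides, was at 134 and 143 CPM against 344 and 226 (adjusted p = 0.00434). Both were far above EEC-PRE, by 4.40 ± 0.48 and 6.19 ± 0.72 (adjusted p = 2.2e-07 and 2.12e-10). Scg3, which links chromogranin A to the granule membrane, was at 109 and 69.9 CPM in EC, 143 and 142 in NON-EC and 0 and 0 in EEC-PRE. The granin and processing list has 20 genes, Bex2 among them, and 17 were tested. Of these, 4 were higher, Bex2 included, and 4 lower than in NON-EC (3 and 0 with DESeq2). Against EEC-PRE 10 were higher, and 0 were lower by edgeR, by DESeq2 or at an unadjusted p under 0.05. Over all genes tested the shares were 0.791% higher and 0.728% lower than in NON-EC and 4.65% higher than in EEC-PRE. With free RNA subtracted the Chgb differences and that of Chga from EEC-PRE did not pass (adjusted p up to 0.652), and Chga against NON-EC also failed with DESeq2, without the library term and without EC replicate 1 (up to 0.412). The Pcsk1 calls were lost without EC replicate 1, that of Bex2 against NON-EC without EC replicate 2, those of Scg2 and Scgn with DESeq2, and those of Cpe and Pam against NON-EC under 6 and 5 of 11 alternatives.

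Of the machinery of granule release, Rab3c and Stxbp5l were higher in EC than in NON-EC, and a larger set was higher than in EEC-PRE. Rab3c (mm10 chr13:110054187-110280996, minus strand) encodes a small GTPase of secretory vesicles, and was at 650.04 and 319.9 CPM in EC, 0 and 0 in NON-EC and 10.1 and 0 in EEC-PRE. The level was at least 135-fold higher than in NON-EC (adjusted p = 1.1e-21) and differed from EEC-PRE by 6.46 ± 0.51 (adjusted p = 6.49e-17). In the 9 remaining classes Rab3c had at most 0.263 CPM. Stxbp5l, a tomosyn that binds SNARE proteins, was at 213 and 195 CPM against 33.2 and 23.3 and 20.2 and 22.8 (2.83 ± 0.38 and 3.25 ± 0.45, adjusted p = 3.12e-08 and 7.84e-08). Complexin 2 (Cplx2) was at 346 and 360.3 CPM in EC and 342 and 306 in NON-EC, a difference of 0.10 ± 0.20, and the SNARE gene Snap25 at 146 and 80.9 against 76.7 and 37.3 (0.97 ± 0.40), neither of which passed. Both were higher than in EEC-PRE, at 111 and 187 and 6.72 and 22.8 CPM, by 1.27 and 3.06 (adjusted p = 0.000155 and 0.000134). Of the 30 exocytosis genes 26 were tested, and 2 were higher than in NON-EC and 10 higher than in EEC-PRE (1 and 5 with DESeq2), beside 0.791% and 4.65% of all genes tested. None was lower by edgeR or DESeq2, and at an unadjusted p under 0.05 the lower genes numbered 0 and 2. With DESeq2 the Rab3c calls did not pass (adjusted p = 0.788 and 0.724), nor that of Snap25 (0.284).

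Of the channels that make hormone cells excitable, the sodium channel gene Scn3a separated EC from both neighbours. Scn3a (mm10 chr2:65457118-65567627, minus strand) was at 1027 and 415 CPM in EC, 99.5 and 67.7 in NON-EC and 30.2 and 27.3 in EEC-PRE. The differences were 3.07 ± 0.21 (adjusted p = 9.48e-21) and 4.67 ± 0.30 (adjusted p = 6.47e-22), and both passed under all 11 alternatives. The P/Q-type calcium channel gene Cacna1a was at 510.3 and 393 CPM against 427 and 296 and 276 and 387 and passed against neither. Subunits of the ATP-sensitive potassium channel, which couples metabolism to secretion, were nearly empty in EC. Kcnj11 was at 0 and 0 CPM against 47.7 and 30.3 in NON-EC (at least 5.75-fold lower, adjusted p = 0.00763), and Abcc8 at 0 and 3.68 against 128 and 58.3 (-5.28 ± 0.95, adjusted p = 0.000124). The 5 channel genes higher than in EEC-PRE were Scn3a, Cacna1d, Cacna1h, Cacna2d1 and Kcnb2. Of the calcium channel genes among them, Cacna2d1 was at 152 and 173 CPM against 43.7 and 63.7 (1.66 ± 0.38, adjusted p = 0.00161), and Cacna1h at 54.7 and 36.8 against 0 and 4.55 (4.47 ± 1.16, adjusted p = 0.00559). Ryr3, a calcium release channel gene outside the list, was at 85.1 and 36.8 CPM against 2.07 and 2.33 and 0 and 0 (4.72 ± 0.91 from NON-EC, adjusted p = 0.000281). Nearly all counts of Ryr3 in these classes were those of EC, so its p-value adds no support to the levels. Of the 30 channel genes 20 were tested, with 1 higher and 2 lower than in NON-EC (1 and 1 with DESeq2), and DESeq2 called 2 of the 5 against EEC-PRE. Among all genes tested 0.791% were higher and 0.728% lower than in NON-EC, and 4.65% higher than in EEC-PRE. The Kcnj11 call was lost without either EC replicate (adjusted p up to 0.21), those of Ryr3 with DESeq2 and without EC replicate 1, and that of Abcc8 with DESeq2. Against EEC-PRE the Cacna2d1 call was lost without EC replicate 2 and those of Cacna1h and Cacna1d with DESeq2 and without EC replicate 1. The Kcnb2 call was lost under 9 of 11 alternatives, among them TMM over all genes, DESeq2 and each fit without an EC replicate.

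Few sensory receptor genes were called between EC and the nearest classes, and their summed level was 565 and 456 CPM in EC, 760 and 492 in NON-EC and 165 and 269 in EEC-PRE. Of 31 receptor genes 15 were at 0 in EC and 15 were tested, with 0 higher than in NON-EC by edgeR or DESeq2 (2 at an unadjusted p under 0.05) and Ffar1, a receptor for long-chain fatty acids, lower, at 6.08 and 0 CPM against 257 and 126 (-6.23 ± 0.73, adjusted p = 5.28e-10, lost with DESeq2). Adgrg4, an adhesion G protein-coupled receptor gene, was at 42.5 and 62.5 CPM in EC and 45.6 and 37.3 in NON-EC, and at least 9.48-fold higher than in EEC-PRE, where it was at 0 (adjusted p = 0.000188). Gpr160 was the other receptor gene called above EEC-PRE, at 18.2 and 14.7 CPM against 0, and its call was lost under 5 of the 10 alternatives that tested it. Over all genes tested 0.791% were higher and 0.728% lower than in NON-EC, and 4.65% higher than in EEC-PRE. The irritant channel gene Trpa1 gave a UMI in 2 of 42 and 0 of 83 EC cells; the 0 allows up to 3.61% of cells with a UMI, and sets no limit on cells expressing the gene.

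Transcription factors told EC from NON-EC by a small set and from EEC-PRE by a larger one. Lmx1a (mm10 chr1:167689237-167848741, plus strand), a LIM-homeodomain factor of the enterochromaffin lineage, was at 243 and 114 CPM in EC and at 0 in both libraries of NON-EC and of EEC-PRE. It was at least 49.4-fold and 28.05-fold higher than in them (adjusted p = 2.31e-12 and 7.11e-10), and stayed at or below 0.253 CPM in all other classes. Lmx1a, like Rab3c above, thus passed the filter on low counts through its EC sums, so these p-values add no support to the levels. Mnx1, a homeobox factor, was at 109 and 47.8 CPM against 12.4 and 0 and 0 and 9.10 (3.62 ± 0.67 and 4.40 ± 0.87, adjusted p = 0.000161 and 0.000164), so both EC values exceeded those of either class. The pioneer factor gene Foxa1 was at 170.1 and 143 CPM against 49.7 and 41.99 and 53.8 and 45.5 (1.75 ± 0.29 and 1.63 ± 0.32, adjusted p = 9.53e-06 and 0.000139). Runx1t1, a transcriptional corepressor gene, was at 365 and 357 CPM against 186 and 65.3 and 43.7 and 86.5 (1.55 ± 0.31 and 2.61 ± 0.41, adjusted p = 0.0111 and 0.000301). Fev, an ETS factor also known from serotonin neurons, was at 304 and 331 CPM in EC and 259 and 203 in NON-EC, a difference that did not pass (0.46 ± 0.20, adjusted p = 0.41), and 3.28 ± 0.34 above EEC-PRE, at 23.5 and 45.5 (adjusted p = 3.21e-12).

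Neurog3, the factor that starts enteroendocrine fate, was intermediate in EC. It stood at 219 and 235 CPM, above 55.9 and 62.99 in NON-EC (1.91 ± 0.33, adjusted p = 0.000342) and below 837 and 810.1 in EEC-PRE (-1.89 ± 0.23, adjusted p = 3.85e-07). Sox4, an early factor of the lineage, was at 273 and 349 CPM in EC and 195 and 259 in NON-EC, both far under the 1757 and 1516 of EEC-PRE (-2.37 ± 0.16 in EC, adjusted p = 6.43e-19). Dll1, a Notch ligand gene, was at 0 and 7.35 CPM against 60.5 and 40.96 in EEC-PRE (-3.47 ± 0.80, adjusted p = 0.00148). Factors lower in EC than in NON-EC included the homeobox genes Isl1 and Pax6, known from peptide hormone cells. Isl1 was at 85.1 and 95.6 CPM against 1073 and 896 in NON-EC (-3.46 ± 0.48, adjusted p = 0.00645). Pax6 was at 54.7 and 73.5 CPM against 338 and 264 (-2.17 ± 0.31, adjusted p = 4.38e-06), and the ETS factor gene Etv1 at 134 and 51.5 against 319 and 209.97 (-1.60 ± 0.31, adjusted p = 0.000269). Pax6 and Etv1 were at the same time above EEC-PRE, by 4.10 and 3.56 (adjusted p = 0.00106 and 3.12e-05), so that the EC levels of both lay between those of EEC-PRE and NON-EC. Neurod1 and Insm1, factors found throughout the enteroendocrine lineage, passed against neither class, Neurod1 at 1002 and 1169 CPM in EC, 1024 and 723 in NON-EC and 622 and 683 in EEC-PRE, and Insm1 at 413 and 151, 311 and 152 and 427 and 237. Atoh1 itself, the driver of the recombinase, was at 0 and 36.8 CPM, with UMIs in 0 of 42 and 7 of 83 cells.

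Of the 38 factors 34 were tested: 5 were higher and 4 lower than in NON-EC (2 and 1 with DESeq2), and 10 higher and 7 lower than in EEC-PRE (6 and 6). The edgeR shares over all genes tested were, in the same order, 0.791%, 0.728%, 4.65% and 2.87%. Lmx1a and Pax6 calls were lost with DESeq2 (adjusted p up to 0.942), those of Neurog3 with DESeq2 (0.056 against EEC-PRE, 0.32 against NON-EC), and those of Mnx1 without the library term and after thinning. The Isl1 call was lost without either EC replicate and with DESeq2, that of Etv1 against NON-EC without EC replicate 2, that of Runx1t1 against NON-EC under 4 of 11 alternatives (DESeq2, no library term, without EC replicate 2, free RNA subtracted; adjusted p up to 0.157), and that of Foxa1 against EEC-PRE after thinning.

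Cyclin-dependent kinase inhibitors, which hold cells out of the cycle, were differently divided among the hormone cell classes. Cdkn1a, which encodes p21 (mm10 chr17:29090976-29100727, plus strand), was at 30.4 and 29.4 CPM in EC, 1144 and 926 in NON-EC and 578 and 659.9 in EEC-PRE. The differences were -5.13 ± 0.39 (adjusted p = 1.73e-07) and -4.37 ± 0.45 (adjusted p = 2.7e-06), and both passed under all 11 alternatives. The EC level was near the 17.2 and 28.999 of the stem cells (ISC), which, with EC, had the lowest Cdkn1a of the 12 classes. Cdkn1b, which encodes p27, was at 395 and 158 CPM in EC, 131 and 88.7 in NON-EC and 57.1 and 36.4 in EEC-PRE, and higher in EC than in each of the 11 other classes (1.24 ± 0.23 from NON-EC and 2.45 ± 0.31 from EEC-PRE, adjusted p = 0.00015 and 3.55e-09). Cdkn1c, which encodes p57, was at 91.1 and 40.4 CPM against 174 and 208 in NON-EC (-1.68 ± 0.30, adjusted p = 6.79e-05) and 90.7 and 77.4 in EEC-PRE. The growth arrest genes Gadd45a and Gadd45g were -1.28 and -2.52 relative to EEC-PRE (adjusted p = 0.000177 and 4.45e-06). Of 16 cell cycle exit genes 15 were tested, with 1 higher and 2 lower than in NON-EC and 2 higher and 4 lower than in EEC-PRE, beside 0.791%, 0.728%, 4.65% and 2.87% of all genes tested.

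Proliferation genes gave no call between EC and the other hormone cells: of 30 genes 0 were called against NON-EC or EEC-PRE by edgeR or DESeq2 (2 and 1 at an unadjusted p under 0.05), with medians of 0.11 and 0.12 beside 0.00 and 0.20 over all genes. Over all genes tested 0.791% were higher and 0.728% lower than in NON-EC, and 4.65% and 2.87% than in EEC-PRE. Against ISC 26 of 30 were lower (median -2.51) and against SEC-PRO, the secretory progenitors, 27 of 30 (median -3.00), beside 9.85% and 9.32% of all genes tested. Mki67 gave a UMI in 2 of 42 and 9 of 83 EC cells. The Cdkn1b call against NON-EC was lost without EC replicate 1, without the library term and after thinning (adjusted p up to 0.421), and that of Cdkn1c without EC replicate 2 (0.452).

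**Figure D2:**
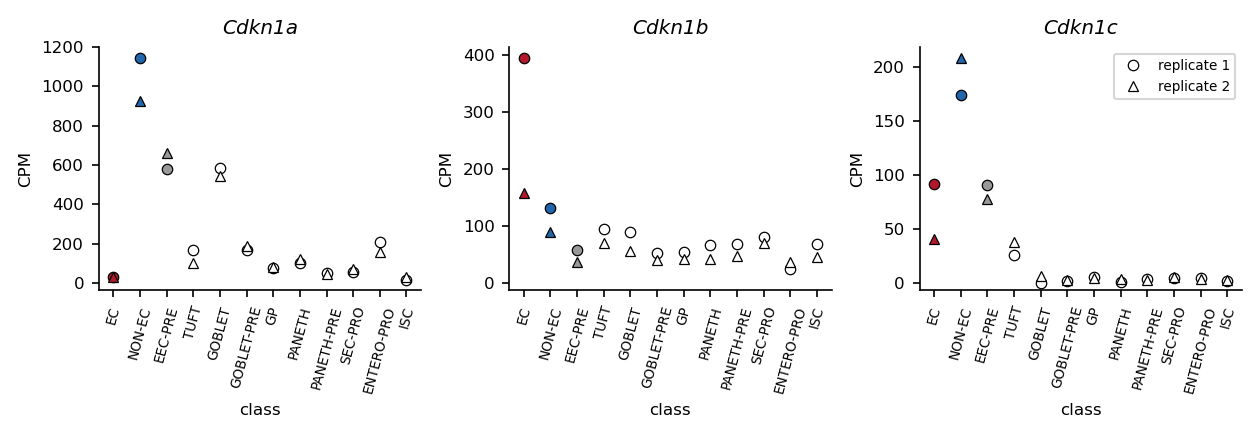
CPM of Cdkn1a, Cdkn1b and Cdkn1c in the 12 classes, 1 panel per gene and 1 point per library. Cdkn1a is lowest in EC and ISC and highest in NON-EC, Cdkn1b is highest in EC, where replicate 1 (395 CPM) stands above replicate 2 (158 CPM), and Cdkn1c is highest in NON-EC.

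The 57 genes higher in EC than in each other class had smallest log2 differences, over the 11 comparisons, from 0.55 (Ptbp3, named for its rank) to 9.91 (Lmx1a). Beside Tph1, Tac1, Chga, Chgb, Slc18a1, Rab3c, Scn3a and Lmx1a they held genes of varied function. Slc38a11, a putative amino acid transporter, was at 158 and 88.2 CPM in EC and at 0 in NON-EC and EEC-PRE, at least 34.8-fold and 19.8-fold higher (adjusted p = 1.24e-09 and 1.29e-07). Among these classes only EC held counts of Slc38a11, so, as for Lmx1a, its p-values add no support to the levels. Atf6, a membrane-bound sensor of the unfolded protein response (mm10 chr1:170704674-170867771, minus strand), was at 1239 and 500.1 CPM against 47.7 and 46.7 and 67.2 and 31.9 (4.11 ± 0.41 and 3.98 ± 0.46, adjusted p = 6.79e-05 and 0.000104). The other genes of folding and export in the endoplasmic reticulum did not share this: of 30, 3 were lower than in NON-EC (Calr, Hsp90b1, Manf; 1 with DESeq2) and 1 lower than in EEC-PRE (Ssr4), beside 0.728% and 2.87% of all genes tested. None was higher by edgeR or DESeq2, and at an unadjusted p under 0.05 the higher genes numbered 0 and 3. Vim, the intermediate filament protein vimentin, was at 838 and 574 CPM against 176 and 58.3 in NON-EC and 3.36 and 0 in EEC-PRE (2.61 ± 0.21 and 8.56 ± 0.51, adjusted p = 3.77e-15 and 1.92e-20), while 7 of 8 stromal and endothelial markers were at 0 in EC and the eighth, Pecam1, was at 36.5 and 14.7 CPM.

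Several genes of moderate level kept their calls under all 11 alternatives. The keratin gene Krt87 was at 115 and 118 CPM against 18.6 and 2.33 in NON-EC (3.44 ± 0.53, adjusted p = 1.74e-06). The glutathione transferase gene Gstt1 was at 200.5 and 132 CPM against 14.5 and 34.99 (2.71 ± 0.36, adjusted p = 3.34e-08). Rasal2, which encodes a Ras GTPase-activating protein, was at 322 and 188 CPM against 26.9 and 18.7 (3.39 ± 0.32, adjusted p = 4.39e-14). Fam49b stood at 255 and 221 CPM against 35.2 and 51.3 (2.46 ± 0.27, adjusted p = 3.3e-11). Kinase genes among the 57 included Cdk14, a cyclin-dependent kinase, at 85.1 and 73.5 CPM against 4.14 and 9.33, and Pdk3, an inhibitor of pyruvate dehydrogenase, at 249 and 180.2 against 29.01 and 32.7 (3.58 and 2.74, adjusted p = 5.31e-05 and 3.09e-11). A second LIM-homeodomain gene beside Lmx1a, Lhx1, was at 122 and 136 CPM against 14.5 and 37.3 (2.30 ± 0.45, adjusted p = 0.000347). The plasma membrane calcium pump gene Atp2b4 was at 91.1 and 47.8 CPM against 4.14 and 4.67, Tpbg at 115 and 44.1 against 0 and 2.33, Lama4, a laminin chain, at 54.7 and 69.9 against 0 and 2.33, and Fjx1 at 78.98 and 58.8 against 0 and 4.67. All 57 had EC values in both libraries above both NON-EC values, but they were selected as called higher than NON-EC, so this adds no support. Of the 57, 47 (82.5%) were higher in EC replicate 1 than in replicate 2, with a median log2 ratio of 0.54, beside 53.5% and 0.06 for the 5939 tested genes with at least 20 CPM in EC and 16 of 30 for ribosomal proteins. The goblet and Paneth marker sums moved the other way between these replicates, and their part in the ratio was not tested. The Slc38a11 calls were lost with DESeq2, as were those of Vim against NON-EC (adjusted p = 0.0873), Fjx1 and Atp2b4, and without EC replicate 1 those of Atp2b4, of Fjx1 and Lhx1 against NON-EC and of Tpbg against EEC-PRE. Without EC replicate 2 the Lama4 call against EEC-PRE was lost.

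**Figure D3:**
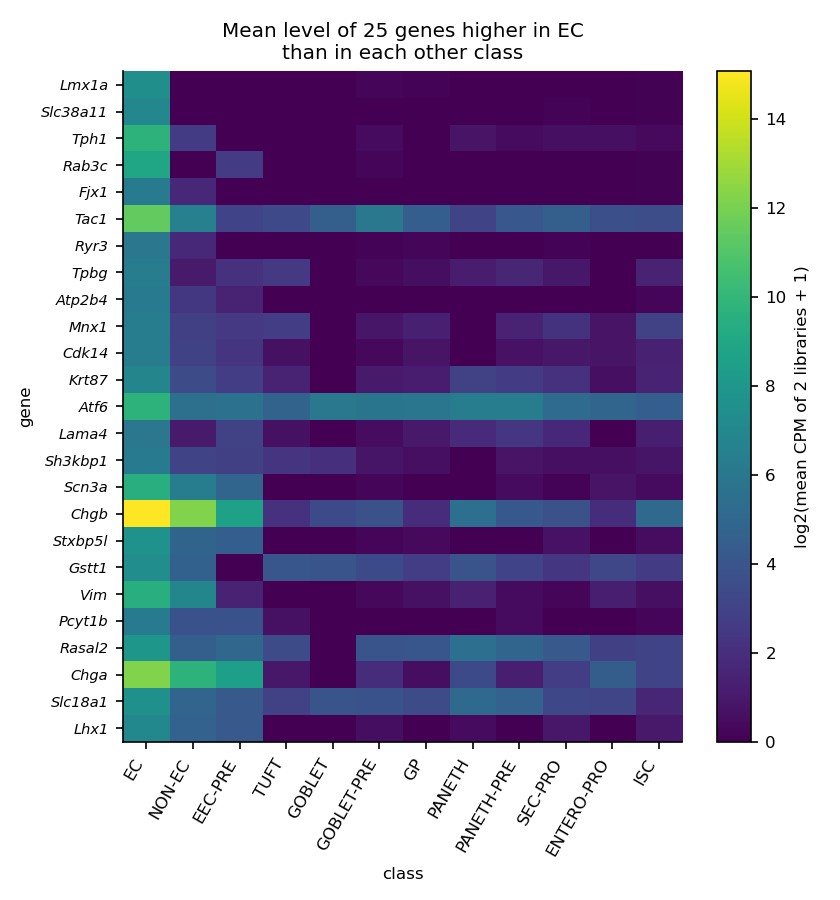
Mean level of the 25 genes with the largest smallest log2 difference, as log2(mean CPM + 1) in each of the 12 classes (colour scale). The EC column is the brightest of its row for all 25 genes, from Lmx1a and Slc38a11, dark in NON-EC and EEC-PRE, to Chgb and Chga, which are also bright there.

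Lower than in each of the 11 other classes were 3 genes, of which Acot7 and Cdx1 were named after their values were seen. Cdx1, an intestinal homeobox factor, was at 60.8 and 47.8 CPM against 131 and 109.7 in NON-EC and 175 and 81.9 in EEC-PRE (-1.16 ± 0.31 and -1.31 ± 0.33, adjusted p = 0.0272 and 0.00455). Acot7, an acyl-CoA thioesterase gene, was at 6.08 and 3.68 CPM against 58.02 and 46.7 and 40.3 and 50.1 (-3.52 ± 0.70 and -3.28 ± 0.78, adjusted p = 0.000407 and 0.0022). Aoc1, a diamine oxidase gene, was at 0 and 0 CPM against 12.4 and 27.996 and 47.04 and 77.4 (adjusted p = 0.0186 and 1.46e-06). All 3 had EC values below every NON-EC and EEC-PRE value, but they were selected as called lower than both, so this adds no support. Against NON-EC the lowest genes after the hormones included fatty acid binding protein Fabp5, at 48.6 and 40.4 CPM against 928 and 866 (-4.33 ± 0.33, adjusted p = 2.08e-09), and the uridine phosphorylase gene Upp1, at 6.08 and 3.68 against 143 and 55.99 (-4.30 ± 0.65, adjusted p = 1.21e-06). Against EEC-PRE they included Mfge8, at 6.08 and 7.35 CPM against 104 and 91.02 (-3.91 ± 0.61, adjusted p = 1.15e-06), and Enpp3, at 0 and 0 against 53.8 and 63.7. Against NON-EC the Aoc1 call was lost under 7 of 11 alternatives, that of Cdx1 under 5 and that of Acot7 under 2, each of these including the fit without EC replicate 2, where the Acot7 and Cdx1 calls against EEC-PRE were lost too.

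Ribosomal protein genes and genes of the mitochondrial genome were lower in EC than in EEC-PRE, as were some nuclear genes of respiration. All 30 cytosolic ribosomal protein genes were lower than in EEC-PRE, with a median of -0.82 beside 0.20 over all genes, and 0 were called against NON-EC (median -0.04) by edgeR, by DESeq2 or at an unadjusted p under 0.05. For this and the lists below, 2.87% of all genes tested were lower and 4.65% higher than in EEC-PRE. Against NON-EC these shares were 0.728% and 0.791%. Rpl3, for example, was at 869 and 842 CPM in EC, 796 and 826 in NON-EC and 1838 and 1479 in EEC-PRE (-0.95 ± 0.11 from EEC-PRE, adjusted p = 7.11e-10). The mitochondrial genome showed 10 of 13 genes lower than in EEC-PRE (median -0.66) and 0 called against NON-EC by either tool (1 at an unadjusted p under 0.05), with mt-Co1 at 4332 and 5122 CPM in EC and 6824 and 6859 in EEC-PRE (-0.53 ± 0.13, adjusted p = 0.00258). Of 30 nuclear oxidative phosphorylation genes 7 were lower than in EEC-PRE (median -0.34; 11 with DESeq2), and 0 were called against NON-EC by edgeR or DESeq2 (4 at an unadjusted p under 0.05, median -0.12). The median share of mitochondrial UMIs per cell was 2.19% and 2.66% in EC, 2.81% and 2.67% in NON-EC and 4.72% and 3.82% in EEC-PRE. Immediate-early and dissociation genes were higher than in EEC-PRE for 6 of 16 (3 to 10 over the alternatives) and called for 0 against NON-EC by edgeR or DESeq2 (3 at an unadjusted p under 0.05), with the AP-1 gene Jun at 1343 and 791 CPM in EC, 555 and 845 in NON-EC and 306 and 469 in EEC-PRE (1.44 ± 0.34, adjusted p = 0.0214). With free RNA subtracted 13 of 30 ribosomal and 1 of 13 mitochondrial genes were called against EEC-PRE, and without EC replicate 1, where the mt-Co1 call was lost, 6 of 13 mitochondrial genes.

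**Figure D4:**
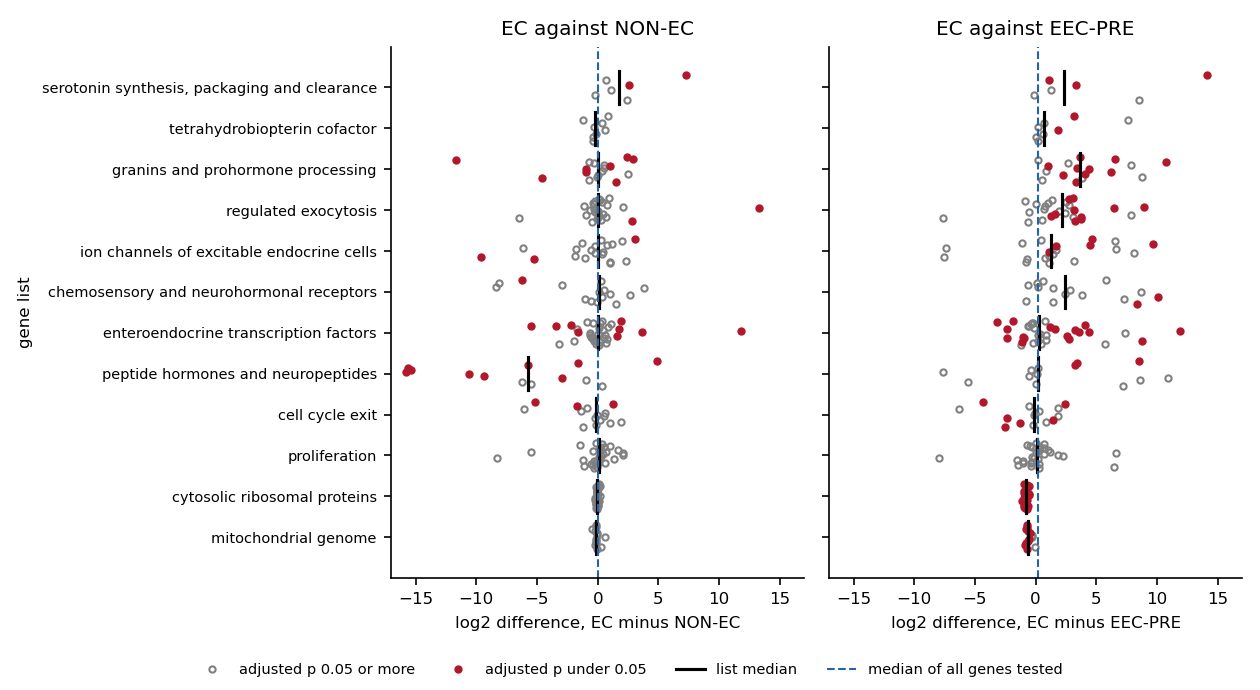
Log2 differences of the tested members of 12 lists, EC minus NON-EC and EC minus EEC-PRE; filled red points passed an adjusted p of 0.05, the black bar is the list's median and the dashed blue line the median of all genes. Granin, exocytosis and transcription factor members spread to both sides of 0 against NON-EC, granin members are all above 0 against EEC-PRE, and ribosomal proteins lie together below it; points beyond about 6 on either side are mostly genes at or near 0 in 1 class, whose fitted value is no measured fold.

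Detection in single EC cells differed between genes and between the 2 libraries. Tph1 gave a UMI in 85.7% (36 of 42, exact 95% interval 71.5 to 94.6) and 57.8% (48 of 83, 46.5 to 68.6) of EC cells, and in 77.5% and 52.2% after thinning each cell to 1500 UMIs, which left out 2 EC cells of replicate 1 and 16 of replicate 2. In the goblet precursors, which should lack it, the share was 0.0863% and 0.0683% at a median of 6104 and 3369 UMIs. Tac1 was found in 92.9% and 77.1% of EC cells (36 of 40 and 50 of 67 thinned) and in 26.1% and 10.8% of goblet precursors (10.4% and 5.36% thinned). Tph1 and Tac1 were found together in 35 and 43 cells, Tph1 without Tac1 in 1 and 5, Tac1 without Tph1 in 4 and 21, and neither in 2 and 14. Lmx1a gave a UMI in 47.6% and 28.9% of EC cells and in 0 of 215 NON-EC and 0 of 130 EEC-PRE cells. Secretin was found in 54.8% and 48.2%, where goblet precursors themselves had 46.9% and 30.3%, and after thinning 20 of 40 and 24 of 67 EC cells against 18.2% and 16.01% of goblet precursors. Cdkn1a was found in 4.76% and 8.43% of EC cells against 76.7% and 77.7% of NON-EC. The intervals cover counting error only.

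**Figure D5:**
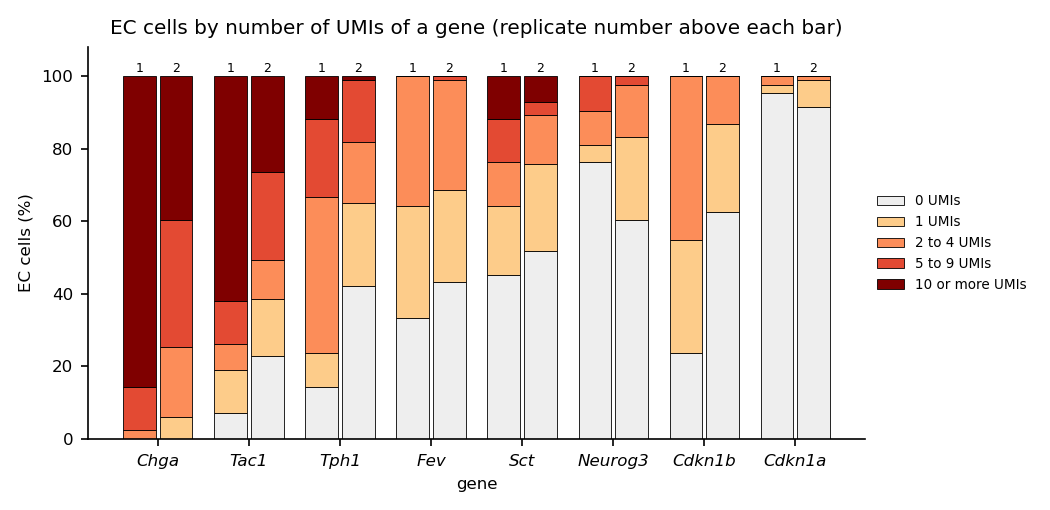
Percent of EC cells by number of UMIs (0, 1, 2 to 4, 5 to 9, 10 or more) for 8 genes, 1 bar per gene and replicate. All cells have Chga UMIs, Tph1 and Tac1 are missing in more cells of replicate 2 than of replicate 1, and most cells have no Neurog3 and no Cdkn1a UMI.

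Neurog3 UMIs were seen in 10 of 42 and 33 of 83 EC cells (12.5% and 29.9% of cells after thinning), against 68.5% and 72.6% of EEC-PRE cells after thinning. The cells with and without a Neurog3 UMI are described here without a test, since they share their libraries and were divided by a measured value. Sct was at 185 and 184 unscaled CPM (without TMM factors; 7 and 15 UMIs) in the cells with Neurog3 and at 1308 and 1677 (120 and 222 UMIs) in those without, in the same direction in both libraries. Median depth did not run the same way, 3372 and 2022 UMIs with Neurog3 and 2520 and 2307 without. Tac1 was at 2851 and 1984 unscaled CPM with Neurog3 and 5406 and 2576 without, and Tph1 at 1373 and 784 with and 1406 and 702 without. Cells with a Tph1 UMI had more Tac1, 5448 and 2975 unscaled CPM, than cells without, 928 and 1139, at median depths of 2832 and 2459 UMIs against 3763 and 1767. Rab3c followed, at 953 and 538 against 221 and 151.

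Against the 9 classes outside the enteroendocrine lineage more genes were called, and most granule and transcription factor genes were higher in EC. Of the 17 genes tested on the granin and processing list, between 11 (GOBLET) and 16 (ISC) were higher in EC in each of these comparisons. Of 34 transcription factors between 22 (TUFT) and 30 (GOBLET-PRE) were higher. Of all genes tested between 9.86% (TUFT) and 23.6% (GOBLET-PRE) were higher. Chgb, for instance, had at most 47.3 CPM in any of these sums, and Fev stayed at or below 1.51 CPM in all 9. Slc18a1 was less exclusive, with 32.8 and 37.1 CPM in PANETH and 28.3 and 22.3 in PANETH-PRE. Sis, sucrase-isomaltase, a brush border enzyme of enterocytes, was at 808 and 423 CPM in EC, 466 and 240.3 in NON-EC and 148 and 164 in EEC-PRE, and at 259.6 and 204 in the enterocyte progenitors (ENTERO-PRO). Its difference from EEC-PRE was 1.96 ± 0.33 (adjusted p = 0.00107; 0.121 with DESeq2), while the enterocyte list as a whole summed to 857 and 537 CPM in EC and 13701 and 5758 in ENTERO-PRO. Folding and export genes were lower in EC for 25 of 30 genes against PANETH, 27 against GOBLET-PRE and 26 against GP (beside 9.04%, 9.52% and 7.64% of all genes tested), with medians of -1.10, -1.39 and -1.45 beside 0.22, 0.42 and 0.36 over all genes. Against ISC 2 were higher and 2 lower (median 0.01) and against TUFT 3 higher and 1 lower (median 0.24), while against ENTERO-PRO, GOBLET, SEC-PRO and PANETH-PRE 14, 19, 26 and 26 were lower. Of all genes tested 20.9% were higher and 9.85% lower than in ISC, and 9.86% and 4.62% than in TUFT. The shares lower than in ENTERO-PRO, GOBLET, SEC-PRO and PANETH-PRE were 10.8%, 9.49%, 9.32% and 7.93%. Of 7 MHC class II genes 6 were lower than in ISC (median -2.49) and 6 lower than in ENTERO-PRO (median -2.50), beside 9.85% and 10.8% of all genes tested.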

How the data were processed

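Single-cell 3′ RNA-seq of Tom+ ileal crypt cells gave 2 libraries of 1 group. Raw UMI counts, by gene and barcode, are what the matrices hold as deposited; they were made with Cell Ranger 3.0.2 and STAR on mm10, per the submitters' processing notes. The table the authors deposited gives class, library, UMI count, gene count and percent of mitochondrial UMIs for each cell, per the file headers; how classes were assigned, and whether doublets were removed, was not stated in the sources at hand, and no doublet caller was run. The table's UMI totals equalled those of the matrix in 77.6% and 73.9% of cells (0% with libraries swapped).

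UMIs of the 12 classes were summed per library (24 sums) and fitted in edgeR 4.0.16 (R 4.3.3) by the quasi-likelihood test with class and library, TMM factors over genes whose average log2 CPM reached 6, and Benjamini-Hochberg adjustment. The library term stands for the replicate number, which pairs classes of 1 library. The members, lists, comparisons and alternatives were chosen with earlier results of these data known. Named genes were the 12 largest and 12 smallest differences against NON-EC and against EEC-PRE, the 25 leading genes higher than each class, members of 29 lists, and 11 genes fixed by name; 527 of 528 IDs matched GENCODE M21. Alternatives were TMM over all genes, DESeq2 1.42.0 (its test and its size factors), no filter on low counts, no library term, leaving out each EC replicate, thinning cells to 1500 UMIs, leaving out the top 10% of cells by UMIs or the 6 EC cells with many UMIs of another type's gene, and subtracting free RNA. Free RNA was estimated from barcodes of at most 50 UMIs and made up at most 3.81% and 15.7% of EC UMIs. On simulated data 22% and 64% of genes changed by 1 and 2 log2 units were recovered against NON-EC, and 21% and 59% against EEC-PRE. The simulated classes shared the same profile, all genes had the same spread, and only better expressed genes were changed. These shares therefore do not give the recovery of genes of a few CPM.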

Additional observations from a re-analysis of the deposited data

Results flagged for a closer look

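Barcodes outside the authors' cell list held EC-like signal. Of those with at least 601 genes, 11 in replicate 1 and 6 in replicate 2 had at least 3 Tph1 UMIs and a Chga UMI, beside 28 and 24 listed cells (27 and 23 of them EC). Their median was 10922 and 8669 UMIs and 3517 and 3134 genes, and each had at least 91 and 88 Chgb UMIs. Of the 11, 7 had 3000 or more genes and 5 had 7% or more mitochondrial UMIs, 1 of them both, and of the 6, 5 and 1. None of them lay within both limits, which all listed EC cells met. The report does not use these barcodes.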

How the results depend on the processing

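With 2 libraries and 129631 and 214067 UMIs, genes of a few CPM gave few counts, and a difference that did not pass may still exist. The replicate numbers pair classes of 1 library. Without this replicate block, 62 genes were higher and 50 lower than in NON-EC, 405 and 224 than in EEC-PRE, and 45 higher than in each class (87, 80, 511, 315 and 57 with it). Genes lower than in NON-EC fell to 49 with DESeq2, 53 after thinning and 52 with free RNA subtracted. Genes higher than in EEC-PRE fell to 290, 265 and 339 in the same order, and those lower to 197 with free RNA subtracted. Leaving out 1 EC replicate gave 55 to 86 higher and 45 to 59 lower than in NON-EC, 274 to 375 higher and 217 to 222 lower than in EEC-PRE, and 34 to 55 higher than in each class; the single EC sum was then assumed to vary like the other classes. The median number called against the 9 other classes, 2906, was 1821 after thinning and 1802 to 1859 without 1 replicate. Of 275 calls of named genes, 174 were lost under at least 1 of 11 alternatives. The sole reversal was Muc2 against EEC-PRE, 0.21 (adjusted p = 0.921), which became -2.06 (adjusted p = 0.000155) without EC replicate 2, which holds the 5 cells with at least 20 Muc2 UMIs, and 0.92 (adjusted p = 0.0152) without EC replicate 1. The cause of this reversal and of the other changes was not tested. Leaving out the 6 cells was chosen after seeing the data.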

Other observations

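Of 12 genes linked to the crypt to villus axis 10 were tested: 1 was higher and 5 lower in EC than in NON-EC (beside 0.791% and 0.728% of all genes tested), and 4 were higher and 1 lower than in EEC-PRE (beside 4.65% and 2.87%). Of these Tac1, Sct, Gcg, Nts and Pyy are also on the hormone list. Relative to EEC-PRE the inhibitor of differentiation genes Id2 and Id3 were higher, Id3 at 91.1 and 40.4 CPM against 6.72 and 4.55 (3.35 ± 0.70, adjusted p = 0.000307), and Bambi, a decoy receptor of the TGF-β family, was lower, at 0 and 3.68 against 57.1 and 27.3 (-3.97 ± 1.02, adjusted p = 0.00516). Relative to NON-EC, Id3 was at 24.9 and 46.7 CPM and did not pass (adjusted p = 0.576), and Bambi, at 62.2 and 11.7, was lower (adjusted p = 0.0191). The Bambi calls were lost without EC replicate 1 and after thinning, among other alternatives. Of 18 Notch and Delta genes 13 were tested, and by edgeR Dll1 against EEC-PRE was the 1 called in these comparisons, with 0 called against NON-EC (2 at an unadjusted p under 0.05, 0 by DESeq2). Over all genes tested 4.65% were higher and 2.87% lower than in EEC-PRE, and 0.791% and 0.728% than in NON-EC.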
